A study of Mus musculus with 9 samples.

Results

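The genes described here make sterols, sense and move them, and build and desaturate long fatty acids. The set holds 37 mouse genes in 4 subgroups, of which 35 had a probe set annotated to that gene alone, out of 18193 genes measured. Sterol synthesis had 14 of 15 genes measured, uptake and control 8 of 8, efflux 2 of 3, and elongation and desaturation 11 of 11. Acat2 and Nr1h2 are not analysed here. RNA was measured on 9 Affymetrix arrays of cells sorted from the mouse retina by fluorescence, with 3 biological replicates in each of 3 groups. All mice were on a C57BL/6J-129/Ola background, and the retinae of 6 to 8 mice were pooled for every replicate. The rhoGFP-positive and rhoGFP-negative groups come from the rhoEGFP line, a reporter of rod photoreceptors, at postnatal day 4 (P4) and hold the cells with and without GFP. The nestinGFP-positive group holds GFP-positive cells sorted at postnatal day 0 (P0) from the pNestin-GFP line, whose reporter follows a filament protein of progenitors. Each group is therefore defined by a transgene and a sort gate, not by a single purified cell type. The nestinGFP-positive group differs from both others in line, age and gate at once. Below, P0 is short for that group, and a difference from P0 cannot be read as an effect of age alone.

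Cells make cholesterol from acetyl-CoA through mevalonate, isoprenoids, squalene and lanosterol. When membrane sterol is low, SCAP carries the SREBP transcription factors to the Golgi for activation and INSIG proteins hold them back when sterol is plentiful. The ABC transporters ABCA1 and ABCG1 export sterol. ELOVL enzymes lengthen fatty acids and FADS and SCD enzymes insert double bonds. Photoreceptor outer segments are rich in the long polyunsaturated fatty acid DHA, and ELOVL2 lengthens its precursors. ELOVL4 makes the very long chains of the retina.

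The signal of 35 members spanned the 35.9th (Scd1) to the 98.5th (Scd2) percentile of mean signal over all genes, so Scd1 was the dimmest member. Array medians lay between 6.08 and 6.17 (log2 signal). The rhoGFP-positive label was borne out by rod markers, of which 10 of 11 were higher than in the rhoGFP-negative cells and 11 of 11 higher than in the nestinGFP-positive cells. Progenitor markers were lower in 10 of 11 in both comparisons, and 0 of 11 were called between the other 2 groups. Of the rod markers 2 of 11 were higher in the rhoGFP-negative than in the nestinGFP-positive cells (median 0.69), against 0.385% of all genes. The log2 of the summed rod signal ran from 16.16 to 16.28 on the rhoGFP-positive arrays. It ran from 13.97 to 14.58 on the rhoGFP-negative and from 13.06 to 13.90 on the nestinGFP-positive arrays. Some markers of other cells also moved with the rhoGFP-positive gate. Of 12 markers of Müller glia and astrocytes, 6 were lower and 1 was higher (Clu) in each comparison of the rhoGFP-positive cells. Among the 12, Aqp4, Gfap, S100b and Aldh1l1 were dim, at 4.58 to 5.83 on all arrays, so the list rests on its brighter markers. The log2 of the summed signal of the 12 ran from 11.33 to 11.80 on the rhoGFP-positive, 13.06 to 13.45 on the rhoGFP-negative and 13.26 to 13.50 on the nestinGFP-positive arrays. For 11 progenitor markers it ran from 12.30 to 13.03, 14.12 to 14.82 and 14.92 to 15.04 in the same order, and for 9 cell cycle genes from 11.71 to 12.32, 12.96 to 14.32 and 14.52 to 14.60. Endothelial and mural markers were lower in 2 of 10 in each comparison (Kdr and Cldn5), against 7.32% and 10.5% of all genes, with list medians of -0.04 and 0.05. Pecam1, Cdh5, Tek and Tie1 were dim, at 3.35 to 4.94 on all arrays. Pigment epithelium markers were higher in 2 of 10 (Tyrp1 and Rgr), against 3.61% and 5.06% of all genes, with medians of 0.09 and 0.14. Rpe65, Tyr, Mlana and Lrat were dim, at 2.71 to 5.49. Neither list moved as a whole. Of 10 microglia and macrophage markers, 0 were called between the P4 fractions, 1 (Tyrobp) was higher in the rhoGFP-positive cells than at P0, and 0 were called in the remaining comparison. The log2 of their summed signal was 10.24 on rhoGFP-positive replicate 3 and lay between 8.40 and 9.15 on the 8 other arrays. Amacrine and ganglion cell markers were lower in 6 of 11 against the rhoGFP-negative cells and in 8 of 11 against the nestinGFP-positive cells, where 7.32% and 10.5% of all genes were. In the rhoGFP-negative cells 1 of 11 was lower than in the nestinGFP-positive cells (median -0.99, 10 of 11 below 0), against 0.605% of all genes. The log2 of their summed signal ran from 10.19 to 10.97 on the rhoGFP-positive, 12.02 to 13.14 on the rhoGFP-negative and 13.44 to 13.83 on the nestinGFP-positive arrays. The table has no detection calls, so no marker can be given as absent. The 3 control probe sets for 18S ribosomal RNA averaged 13.62, 13.61 and 12.13 on the replicate 1 arrays and 9.65 to 10.44 on the 6 others. The actin 3' minus 5' log2 difference averaged 0.91 ± 0.064 on rhoGFP-positive arrays, 0.65 ± 0.021 on rhoGFP-negative arrays and 0.67 ± 0.30 on nestinGFP-positive arrays (SD, n = 3 each).

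A gene was called higher or lower at a limma adjusted p below 0.05 over all 18193 genes together with a difference of at least 1 log2 unit, which is 2-fold. Between the rhoGFP fractions 4 of 35 members were higher and 6 lower, against 3.61% and 7.32% of all genes. Against the nestinGFP-positive cells, 6 members were higher and 12 lower in the rhoGFP-positive cells, where 5.06% and 10.5% of all genes were. Between the rhoGFP-negative and nestinGFP-positive cells 1 member was higher and 3 lower, against 0.385% and 0.605% of all genes. By the adjusted p alone, whatever the size, the members counted 6 higher and 9 lower (background 10.1% and 14.2%), 8 and 17 (background 16% and 19.8%), and 1 and 6 (background 0.951% and 1.08%) in the same order. With the replicate number as a block, the counts by adjusted p alone in the last of these were 5 higher and 14 lower, over a background that also grew, from 173 to 709 genes higher and from 197 to 1253 lower. Here and below, block values against the nestinGFP-positive cells match arrays of different mice, lines and ages by number. The labels do not state that pairing and the data left it unclear, so these p-values are conditional on it. The members added were Npc1, Abcg1, Elovl2 and Elovl4 as higher and Sqle, Lss, Nsdhl, Sc5d, Srebf2, Elovl5, Fads1 and Scd1 as lower, all by less than 2-fold. In all 20 members were called in at least 1 comparison and 15 in none. The comparisons share groups, so they are not independent of each other. In sorted bulk RNA, fewer cells of a type and less RNA per cell cannot be told apart.

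**Figure D1:**
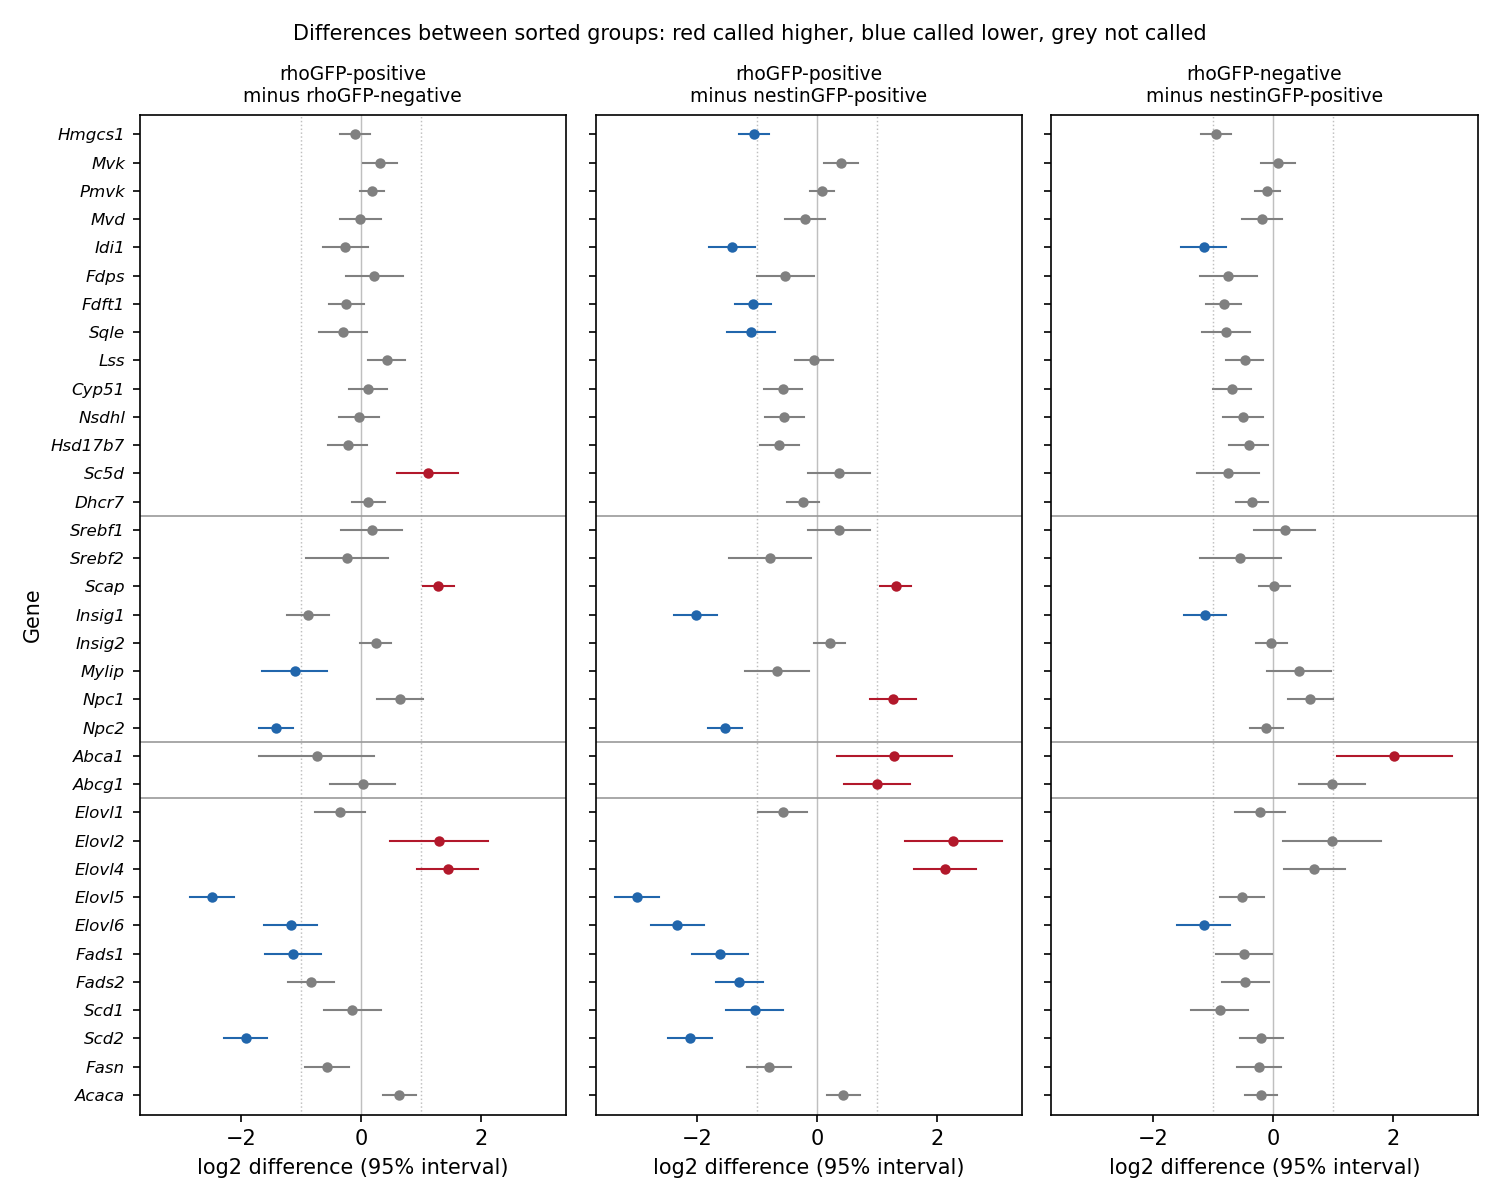
Log2 difference (x axis, log2 units) of each of the 35 measured genes (y axis) in the 3 comparisons, as points with 95% intervals from limma; dotted lines mark a difference of 1 log2 unit. Red points are called higher and blue points lower; the rhoGFP-positive cells have 4 red and 6 blue points against the rhoGFP-negative cells and 6 red and 12 blue points against the nestinGFP-positive cells.

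Several enzymes of sterol synthesis had their highest signal in the nestinGFP-positive cells. Against the nestinGFP-positive group, 4 of 14 were lower in the rhoGFP-positive cells (Idi1, Sqle, Fdft1 and Hmgcs1), where 10.5% of all genes were. In the rhoGFP-negative cells 1 of 14 was lower (Idi1), against 0.605% of all genes. None was higher in either. The median log2 difference of the 14 was -0.54 in the rhoGFP-positive and -0.59 in the rhoGFP-negative cells, where the median of all genes was 0.06 and 0.03. Differences below 0 numbered 11 of 14 and 13 of 14, against 43.1% and 43.8% of all genes. Between the P4 fractions the median was 0.04, beside 0.01 over all genes, with 7 of 14 differences on each side of 0.

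The promoters of these genes are shown because many of these genes share promoter-binding regulators. RefSeq (GRCm38.p6) held 39 promoter windows for 29 of the 37 genes, and the 250 bases before the start of each were searched on both strands for TCACNCCAC (a form of the sterol regulatory element), CCAAT (the box of the factor NF-Y, a partner of SREBPs) and TAATCC (a site of the photoreceptor factor CRX). The CCAAT letters stood in at least 1 window of 11 of 12 sterol synthesis genes, 6 of 7 uptake and control genes, 0 of 2 efflux genes and 3 of 8 elongation and desaturation genes, against 37.5% of all 27025 genes in the table. TCACNCCAC was found in 1 member, Hmgcs1, and in 1.22% of all genes. TAATCC was found in 3 members, Mvk, Insig2 and Scap, and in 7.21% of all genes; in Mvk it overlapped a CCAAT match by 2 bases. These are matches of letters, not sites of binding. The windows below belong to the member with the largest called difference in each subgroup and to Hmgcs1, which was added after the search as the member with the TCACNCCAC match. Each reads 5′ to 3′ on the strand of the gene and ends 1 base before its start, with matches in capitals (ATTGG is CCAAT on the opposite strand).
Idi1: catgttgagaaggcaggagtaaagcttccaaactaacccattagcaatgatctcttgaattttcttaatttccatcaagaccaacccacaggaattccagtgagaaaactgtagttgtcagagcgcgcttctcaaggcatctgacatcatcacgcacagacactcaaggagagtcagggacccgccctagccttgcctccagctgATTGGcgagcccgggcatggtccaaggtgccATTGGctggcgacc
Hmgcs1: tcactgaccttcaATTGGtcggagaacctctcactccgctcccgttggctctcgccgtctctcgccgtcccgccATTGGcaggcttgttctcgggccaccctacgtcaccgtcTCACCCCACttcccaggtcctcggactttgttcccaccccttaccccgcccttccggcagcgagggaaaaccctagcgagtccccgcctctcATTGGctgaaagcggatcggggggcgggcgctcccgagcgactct
Insig1: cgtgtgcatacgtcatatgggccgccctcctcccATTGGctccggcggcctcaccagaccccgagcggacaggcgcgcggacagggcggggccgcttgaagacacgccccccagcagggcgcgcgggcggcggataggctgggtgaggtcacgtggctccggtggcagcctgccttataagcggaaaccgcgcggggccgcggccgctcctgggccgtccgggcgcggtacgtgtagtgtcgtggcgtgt
Abca1: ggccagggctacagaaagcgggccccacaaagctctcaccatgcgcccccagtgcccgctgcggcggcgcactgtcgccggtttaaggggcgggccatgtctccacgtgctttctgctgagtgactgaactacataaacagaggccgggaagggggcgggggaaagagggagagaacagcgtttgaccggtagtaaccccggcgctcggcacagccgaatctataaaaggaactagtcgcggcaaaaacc
Elovl5: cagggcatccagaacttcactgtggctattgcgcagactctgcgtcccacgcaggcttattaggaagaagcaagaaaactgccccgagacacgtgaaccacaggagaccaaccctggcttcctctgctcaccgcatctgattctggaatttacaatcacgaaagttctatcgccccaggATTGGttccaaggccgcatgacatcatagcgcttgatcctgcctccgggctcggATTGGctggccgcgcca
They lie at chr13:8885356-8885605 (Idi1, plus strand), chr13:119690101-119690350 (Hmgcs1, plus), chr5:28071162-28071411 (Insig1, plus), chr4:53159896-53160145 (Abca1, minus) and chr9:77917115-77917364 (Elovl5, plus). Hmgcs1 holds TCACCCCAC from 137 to 129 bases before its start, with 3 CCAAT boxes; Idi1 and Elovl5 hold 2 CCAAT boxes each and Insig1 holds 1. The Abca1 window holds none of the 3 motifs.

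Hmgcs1 encodes the enzyme that makes HMG-CoA at the entry to the mevalonate pathway. Its log2 signal was 10.70, 10.42 and 10.75 on rhoGFP-positive replicates 1, 2 and 3, 10.65, 10.73 and 10.80 on the rhoGFP-negative arrays, and 11.68, 11.70 and 11.66 on the nestinGFP-positive arrays. All 6 P4 arrays lay below all 3 P0 arrays, and the P4 fractions overlapped. The rhoGFP-positive cells were lower by 2.08-fold (log2 difference -1.05 ± 0.11 SE, limma adjusted p = 6.29e-05). The rhoGFP-negative cells differed by -0.95 ± 0.11 (limma adjusted p = 0.00725), just under the 2-fold minimum. Without rhoGFP-positive replicate 2 the first difference was -0.95 and also under that minimum. All 4 other probe sets of Hmgcs1 gave differences between -1.34 and -0.89 for the rhoGFP-positive and between -1.18 and -0.72 for the rhoGFP-negative cells against the nestinGFP-positive cells.

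Idi1, the isomerase that yields the reactive isoprene unit, had the largest difference among the 14 enzymes. Its signal was 8.72, 8.34 and 8.73 in rhoGFP-positive, 8.79, 8.78 and 9.01 in rhoGFP-negative and 10.20, 10.17 and 9.67 in nestinGFP-positive replicates 1, 2 and 3. The 3 groups did not overlap, with the nestinGFP-positive arrays highest. It was 2.67-fold lower in the rhoGFP-positive (-1.42 ± 0.17 SE, limma adjusted p = 0.000133) and 2.22-fold lower in the rhoGFP-negative cells (-1.15 ± 0.17, limma adjusted p = 0.0181). Between the P4 fractions it differed by -0.26 (95% interval -0.64 to 0.12), which was not called. The rhoGFP-negative call was lost when rhoGFP-negative replicate 1 or 2 or nestinGFP-positive replicate 2 was left out (limma adjusted p = 0.0675, 0.0653 and 0.0807) and with only the 6 arrays compared (0.0518).

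Fdft1 and Sqle act in succession on squalene, the former making it and the latter opening the way to lanosterol. Fdft1 stood at 9.30, 9.18 and 9.41 in the rhoGFP-positive, 9.36, 9.48 and 9.80 in the rhoGFP-negative and 10.28, 10.42 and 10.38 in the nestinGFP-positive arrays. It was 2.09-fold lower in the rhoGFP-positive than in the nestinGFP-positive cells (-1.07 ± 0.13 SE, limma adjusted p = 0.000158). Both P4 fractions lay below every P0 array, though the rhoGFP-negative difference of -0.82 (limma adjusted p = 0.0217) was under 2-fold. Its bright second probe set gave -1.20, while 2 dim ones gave 0.13 and 0.01, and the call was lost with the mean of all 4 (-0.53). Sqle stood at 9.83, 9.57 and 9.73 in the rhoGFP-positive, 9.87, 9.76 and 10.44 in the rhoGFP-negative and 10.95, 10.85 and 10.62 in the nestinGFP-positive arrays. Sqle was 2.14-fold lower in the rhoGFP-positive cells (-1.10 ± 0.18, limma adjusted p = 0.000945). The rhoGFP-negative replicate 3 array came nearest to the P0 arrays, and that group's difference of -0.79 was not called (limma adjusted p = 0.0574; 0.0178 with the replicate block, below 2-fold).

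Sc5d, the desaturase of a late step toward cholesterol, was the single sterol enzyme called between the P4 fractions. It stood at 7.94, 8.20 and 8.32 in rhoGFP-positive, 6.46, 7.24 and 7.46 in rhoGFP-negative and 7.68, 7.94 and 7.78 in nestinGFP-positive arrays. The rhoGFP-negative arrays were lowest and did not overlap either other group. The rhoGFP-positive cells were 2.15-fold higher than the rhoGFP-negative cells (1.10 ± 0.23 SE, limma adjusted p = 0.00608). This shrank to 0.81 without rhoGFP-negative replicate 1, the lowest array, and to 0.78 with the mean of its 3 probe sets, of which the second bright one gave 1.03. Against the nestinGFP-positive cells the rhoGFP-positive cells differed by 0.36 (95% interval -0.16 to 0.87).

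The 9 other enzymes were called in no comparison. The isoprenoid enzyme Fdps, at 9.48 to 9.81 in the rhoGFP-positive, 9.24 to 9.75 in the rhoGFP-negative and 9.72 to 10.45 in the nestinGFP-positive arrays, spread most within the P0 group, where replicate 3 sat among the P4 arrays. By the adjusted p alone the lanosterol demethylase Cyp51 was lower in both P4 fractions (-0.57 and -0.68 against P0, limma adjusted p = 0.0107 and 0.0457). Nsdhl (-0.54) and Hsd17b7 (-0.63), which act on sterol intermediates, passed that threshold in the rhoGFP-positive cells (limma adjusted p = 0.016 and 0.00707). Mvk, the mevalonate kinase, was higher by that rule in the rhoGFP-positive cells (0.40, limma adjusted p = 0.0342). The rest, Pmvk, Mvd, Lss and Dhcr7, differed by between -0.47 and 0.42 in all 3 comparisons, with Lss, the lanosterol synthase, at both ends. With the replicate block Lss passed the adjusted p alone as higher in the rhoGFP-positive than the rhoGFP-negative cells (0.42, limma adjusted p = 0.0216). The cell cycle markers moved in the same direction as the sterol enzymes against P0, with 9 of 9 lower in the rhoGFP-positive (median -3.54) and 0 of 9 called in the rhoGFP-negative cells (median -1.35). Between the P4 fractions their median was -2.20, beside 0.04 for the sterol enzymes. Medians against P0 were also below 0 for progenitor (-2.72 and -0.45) and amacrine and ganglion markers (-2.76 and -0.99). Those of rod and microglia markers were above 0. The part of any of these in the sterol differences was not tested.

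**Figure D2:**
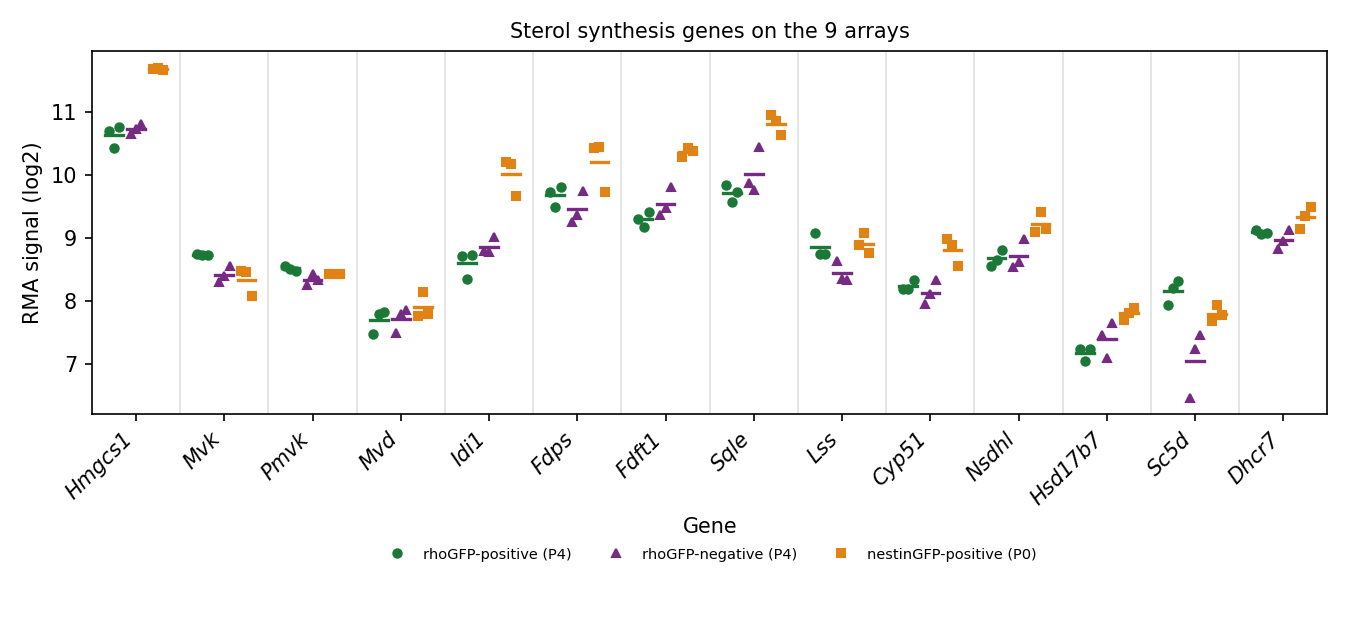
Log2 RMA signal (y axis) of the 14 measured sterol synthesis genes (x axis), with 1 point per array and a bar at each group mean, 3 arrays per group. For Hmgcs1 the 3 nestinGFP-positive points sit between 11.66 and 11.70, above the 6 points of the P4 fractions, which lie between 10.42 and 10.80.

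Among the genes that sense and take up sterol, members moved in both directions. In the rhoGFP-positive cells Scap was higher and Npc2 lower than in either other group, Mylip was lower than in the rhoGFP-negative cells, and Npc1 was higher and Insig1 lower than in the nestinGFP-positive cells. Between the P4 fractions 1 of 8 was higher and 2 lower, against 3.61% and 7.32% of all genes. Against the nestinGFP-positive group 2 of 8 were higher and 2 lower in the rhoGFP-positive cells, where 5.06% and 10.5% of all genes were. The rhoGFP-negative cells had 1 of 8 lower than that group, against 0.605% of all genes. With so few genes, these counts say little about the subgroup as a whole. The subgroup's median differences were -0.03, -0.23 and -0.01 in that order, beside 0.01, 0.06 and 0.03 over all genes.

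Insig1, itself a target of SREBPs, retains the SCAP complex in the endoplasmic reticulum. It stood at 7.69, 7.54 and 7.93 in rhoGFP-positive, 8.63, 8.35 and 8.84 in rhoGFP-negative and 9.71, 9.93 and 9.60 in nestinGFP-positive arrays. The 3 groups were fully separated, in the order rhoGFP-positive, rhoGFP-negative, nestinGFP-positive. Against P0 it was 4.07-fold lower in the rhoGFP-positive (-2.02 ± 0.16 SE, limma adjusted p = 1.02e-05) and 2.20-fold lower in the rhoGFP-negative cells (-1.14 ± 0.16, limma adjusted p = 0.0144). The latter call was lost without rhoGFP-negative replicate 1 (limma adjusted p = 0.0570) or nestinGFP-positive replicate 2 (0.0663) and with only 6 arrays (0.0510). Between the P4 fractions the difference of -0.89 (limma adjusted p = 0.00239) was under 2-fold, and it was -1.01 and called without rhoGFP-negative replicate 2. Its paralogue Insig2 was not called and differed by at most 0.24 with the chosen probe set. A second probe set of similar brightness gave 0.60 for the rhoGFP-positive cells against P0 (limma adjusted p = 0.0441 over all probe sets) and 0.38 between the P4 fractions, and a dimmer one gave 0.41 and 0.34.

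Scap, the sterol-sensing escort of the SREBPs, was higher in the rhoGFP-positive cells than in either other group. Its signal was 11.56, 11.69 and 11.44 there, 10.22, 10.27 and 10.36 in the rhoGFP-negative and 10.11, 10.25 and 10.42 in the nestinGFP-positive arrays. The rhoGFP-positive arrays stood apart by over 1 unit, while the other 2 groups overlapped. The difference was 1.28 ± 0.11 SE against the rhoGFP-negative (2.44-fold, limma adjusted p = 3.65e-05) and 1.30 ± 0.11 against the nestinGFP-positive cells (2.47-fold, limma adjusted p = 2.03e-05). A dim second probe set gave 1.33 and 1.39. Its promoter holds 1 of the 3 TAATCC matches found among the 29 members with a promoter, where 7.21% of all genes hold one. Mvk and Insig2, which hold the others, were called in no comparison. A role of the match was not tested.

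The SREBP genes themselves were not called with their brightest probe sets, but a second probe set of Srebf2 met the calling rule. Srebf1, whose product favours fatty acid genes, spanned 9.76 to 10.76 in the rhoGFP-positive, 9.95 to 10.35 in the rhoGFP-negative and 9.74 to 10.07 in the nestinGFP-positive arrays. Srebf2, whose product favours sterol genes, was 9.17, 9.75 and 10.02 in the rhoGFP-positive, 9.40, 10.01 and 10.24 in the rhoGFP-negative and 9.89, 10.56 and 10.83 in the nestinGFP-positive replicates 1, 2 and 3. The groups overlapped, and in each the replicate 1 array was lowest, and the replicate 1 arrays also had the highest 18S control signal. Against P0 the rhoGFP-positive difference of -0.78 had a limma adjusted p of 0.0718, and the rhoGFP-negative difference of -0.54 one of 0.393. With the replicate block these became 8.23e-05 and 0.00584, below 2-fold in both cases. Without nestinGFP-positive replicate 1 the rhoGFP-positive difference was -1.05 and called. The second bright probe set of Srebf2 gave -1.08 for the same comparison (limma adjusted p = 0.00362 over all probe sets), -0.52 for the rhoGFP-negative cells against P0 and -0.56 between the P4 fractions. The part of the 18S signal was not tested.

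Npc1 and Npc2 hand cholesterol out of lysosomes, the latter as a soluble carrier and the former as the membrane protein that receives it, and they differed in opposite directions. Npc2 stood at 9.89, 9.78 and 10.13 in rhoGFP-positive, 11.31, 11.23 and 11.52 in rhoGFP-negative and 11.42, 11.45 and 11.53 in nestinGFP-positive arrays. The rhoGFP-positive arrays lay more than 1 unit below the rest. It was 2.67-fold lower than in the rhoGFP-negative (-1.42 ± 0.12 SE, limma adjusted p = 3.25e-05) and 2.89-fold lower than in the nestinGFP-positive cells (-1.53 ± 0.12, limma adjusted p = 1.31e-05). A second bright probe set gave -1.55 and -1.62, 2 dim ones gave -0.61 and -0.50 and 0.10 and 0.03, and the mean of the 4 was under 2-fold (-0.87 and -0.91). Npc1 stood at 8.72, 8.48 and 8.30 in rhoGFP-positive, 8.02, 7.79 and 7.76 in rhoGFP-negative and 7.49, 7.32 and 6.90 in nestinGFP-positive arrays. The 3 groups did not overlap, in the reverse of the Insig1 order. In the rhoGFP-positive cells Npc1 was 2.40-fold higher than in the nestinGFP-positive cells (1.26 ± 0.17, limma adjusted p = 0.000272). Its difference of 0.64 from the rhoGFP-negative cells (limma adjusted p = 0.0199) was under 2-fold. Of the Müller glia and astrocyte markers 6 of 12 were lower in the same comparisons, and their part in the Npc2 difference was not tested.

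Mylip, the ubiquitin ligase that degrades lipoprotein receptors, stood at 9.21, 8.69 and 8.23 in rhoGFP-positive, 10.01, 9.92 and 9.51 in rhoGFP-negative and 9.40, 9.59 and 9.15 in nestinGFP-positive arrays. The rhoGFP-positive arrays lay below every rhoGFP-negative array and overlapped the nestinGFP-positive ones. The difference between the P4 fractions was -1.11 ± 0.24 SE (2.16-fold lower, limma adjusted p = 0.00713), and -0.87 and no longer called without rhoGFP-positive replicate 3, the lowest array.

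**Figure D3:**
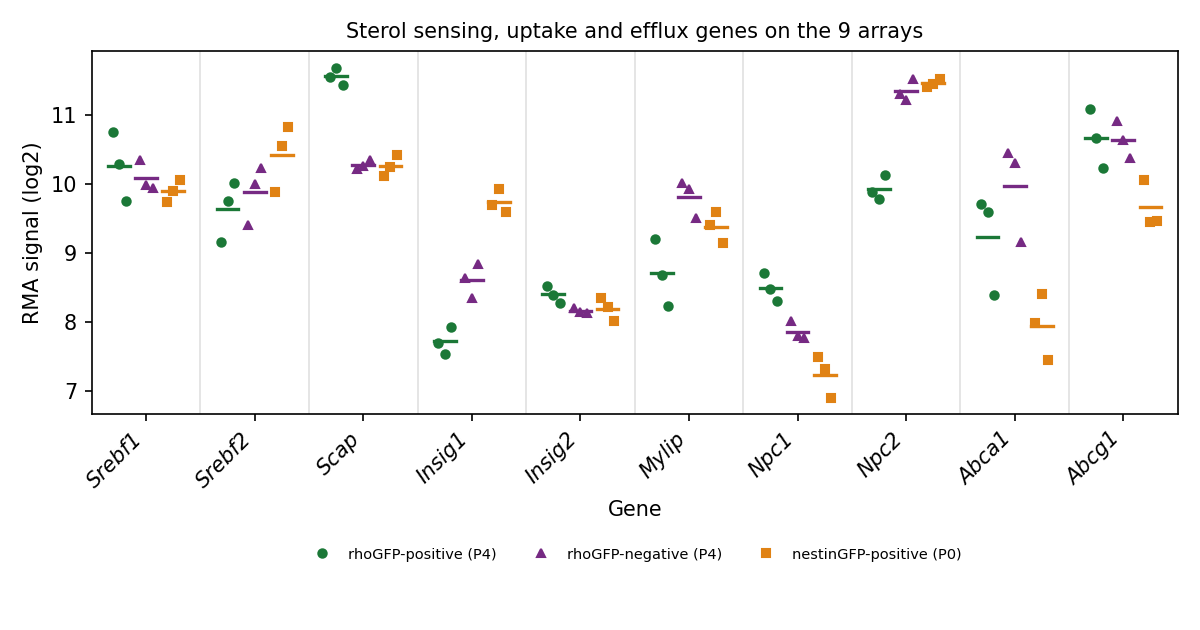
Log2 RMA signal (y axis) of the 8 sensing and uptake genes and the 2 measured efflux genes (x axis), with 1 point per array and a bar at each group mean, 3 arrays per group. Scap is high in the rhoGFP-positive cells, at 11.44 to 11.69 against 10.11 to 10.42 on the 6 other arrays, and Npc2 is low there, at 9.78 to 10.13 against 11.23 to 11.53.

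Both measured efflux transporters were higher in the rhoGFP-positive than in the nestinGFP-positive cells, and Abca1 was also higher in the rhoGFP-negative cells, but these calls were among the least stable. Abcg1, which loads sterol onto lipoprotein particles, stood at 11.10, 10.67 and 10.23 in rhoGFP-positive, 10.91, 10.63 and 10.39 in rhoGFP-negative and 10.07, 9.45 and 9.47 in nestinGFP-positive arrays. Every P4 array lay above every P0 array, and the P4 fractions overlapped (0.02, 95% interval -0.53 to 0.57). The rhoGFP-positive difference from P0 was 1.00 ± 0.24 SE (limma adjusted p = 0.00962), at the 2-fold minimum, and it fell below that minimum with the mean of both probe sets (0.95) and without rhoGFP-positive replicate 1 (0.79) or nestinGFP-positive replicate 2 (0.90) or 3 (0.91). The rhoGFP-negative difference of 0.98 was not called (limma adjusted p = 0.0738; 0.00151 with the replicate block, under 2-fold), and without nestinGFP-positive replicate 1 it was 1.18 and called (limma adjusted p = 0.0406).

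Abca1, which passes sterol to lipid-poor apolipoproteins, varied most between replicates. It stood at 9.71, 9.59 and 8.39 in rhoGFP-positive, 10.45, 10.31 and 9.16 in rhoGFP-negative and 7.99, 8.41 and 7.45 in nestinGFP-positive arrays. Replicate 3 was lowest in every group, and rhoGFP-positive replicate 3 fell within the P0 range. The rhoGFP-negative cells were 4.05-fold higher than P0 (2.02 ± 0.43 SE, limma adjusted p = 0.0478) and the rhoGFP-positive cells 2.43-fold higher (1.28 ± 0.43, limma adjusted p = 0.0411). The former call was lost under 9 alternatives, among them 7 of the 9 that left out 1 array (limma adjusted p = 0.0536 to 0.164), the exceptions being replicate 3 of each rhoGFP fraction. The latter was lost under 6, including those without rhoGFP-positive replicate 1 or 2, rhoGFP-negative replicate 2 or nestinGFP-positive replicate 1 or 3. With the mean of its 3 probe sets, of which 2 are dim, Abca1 was at 1.06 and 0.73 and not called. The microglia and macrophage markers also had a median difference above 0 against P0, of 0.72 in the rhoGFP-positive cells (9 of 10 above 0) and 0.36 in the rhoGFP-negative cells (8 of 10). Without rhoGFP-positive replicate 3, the array with the highest microglial sum, the rhoGFP-positive differences from P0 were 1.70 for Abca1 and 1.22 for Abcg1. That array was also the lowest of its group for both genes (8.39 and 10.23), so leaving it out had to raise both differences. The part of microglia and macrophages in the efflux differences was not tested. With the replicate block the Abca1 difference between the P4 fractions was -0.74 (limma adjusted p = 0.00415), which is under 2-fold.

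Fatty acid enzymes split within the family. In the rhoGFP-positive cells Elovl2 and Elovl4 were higher than in either other group, while Elovl5, Elovl6, Fads1 and Scd2 were lower than in both and Fads2 and Scd1 were lower than in the nestinGFP-positive cells. Of 11 members 2 were higher and 4 lower between the P4 fractions, against 3.61% and 7.32% of all genes. In the rhoGFP-positive cells 2 were higher and 6 lower against P0, where 5.06% and 10.5% of all genes were. Between the rhoGFP-negative and nestinGFP-positive cells 1 of 11, Elovl6, was lower, against 0.605% of all genes. The subgroup medians were -0.57, -1.04 and -0.24 in the same order, beside 0.01, 0.06 and 0.03 over all genes.

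Elovl4 makes very long chain fatty acids and is mutated in a dominant macular dystrophy. It stood at 11.78, 11.44 and 11.36 in rhoGFP-positive, 10.41, 10.22 and 9.62 in rhoGFP-negative and 9.55, 9.61 and 9.03 in nestinGFP-positive arrays. The groups were fully separated, highest in the rhoGFP-positive cells. It was 2.71-fold higher than in the rhoGFP-negative (1.44 ± 0.23 SE, limma adjusted p = 0.00122) and 4.37-fold higher than in the nestinGFP-positive cells (2.13 ± 0.23, limma adjusted p = 6.73e-05). A second probe set gave 1.48 and 2.64. The rhoGFP-negative cells differed from P0 by 0.69 (limma adjusted p = 0.148; 0.00863 with the replicate block, under 2-fold).

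Elovl2 lengthens the precursors of DHA. It stood at 11.76, 11.21 and 11.15 in rhoGFP-positive, 10.60, 10.22 and 9.43 in rhoGFP-negative and 9.75, 9.13 and 8.44 in nestinGFP-positive arrays. The rhoGFP-positive arrays were above all others, and the other groups overlapped, though within each replicate number the rhoGFP-negative array was above the nestinGFP-positive one. The rhoGFP-negative difference from P0 was 0.98 ± 0.36 SE (limma adjusted p = 0.191), and with the replicate block 0.98 ± 0.15 (limma adjusted p = 0.00424), under 2-fold. In the rhoGFP-positive cells the difference was 2.27 ± 0.36 SE against P0 (4.81-fold, limma adjusted p = 0.000835) and 1.29 ± 0.36 against the rhoGFP-negative cells (2.45-fold, limma adjusted p = 0.0271). The latter call was lost without rhoGFP-negative replicate 3 (0.96, limma adjusted p = 0.0947), rhoGFP-negative replicate 2 (0.0582) or rhoGFP-positive replicate 1 (0.0898) or 2 (0.0597). In each group replicate 1, the array with the highest 18S control signal, was highest and replicate 3 lowest.

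Elovl5, which elongates polyunsaturated chains upstream of ELOVL2, had the largest difference of all members. It stood at 8.34, 8.11 and 8.51 in rhoGFP-positive, 10.61, 10.65 and 11.16 in rhoGFP-negative and 11.25, 11.34 and 11.38 in nestinGFP-positive arrays. A gap of over 2 units separated the rhoGFP-positive arrays from the rest. It was 5.58-fold lower than in the rhoGFP-negative (-2.48 ± 0.16 SE, limma adjusted p = 7.78e-06) and 8.00-fold lower than in the nestinGFP-positive cells (-3.00 ± 0.16, limma adjusted p = 1.66e-06). The chosen probe set is of the _x_at kind, which can bind related transcripts, and the other one gave -2.84 and -3.36. Its window, shown above, holds 2 CCAAT boxes.

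Elovl6, which elongates saturated and monounsaturated chains, was graded over the groups. It stood at 7.26, 7.41 and 7.71 in rhoGFP-positive, 8.22, 8.70 and 8.98 in rhoGFP-negative and 9.61, 9.87 and 9.89 in nestinGFP-positive arrays. No array of 1 group reached another. It was 2.26-fold lower in the rhoGFP-positive than the rhoGFP-negative cells (-1.17 ± 0.20 SE, limma adjusted p = 0.00171) and 5.02-fold lower than in the nestinGFP-positive cells (-2.33 ± 0.20, limma adjusted p = 1.61e-05). The rhoGFP-negative cells were 2.22-fold below P0 (-1.15 ± 0.20, limma adjusted p = 0.0247), a call lost without rhoGFP-positive replicate 2, rhoGFP-negative replicate 1 or 2, or nestinGFP-positive replicate 2 or 3, when the limma adjusted p was 0.0526 to 0.104. A second bright probe set gave -1.25 and -1.98 for the rhoGFP-positive cells, and the mean of these and 1 dim probe set was -0.81 between the P4 fractions and not called. Without rhoGFP-negative replicate 3 that difference was -0.999, just under the minimum.

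Fads1 and Fads2 are the neighbouring genes of the desaturases that act on polyunsaturated chains. Fads1 stood at 8.97, 9.35 and 9.50 in rhoGFP-positive, 10.05, 10.42 and 10.76 in rhoGFP-negative and 10.61, 11.04 and 11.03 in nestinGFP-positive arrays. The rhoGFP-positive arrays were below all others. It was 2.20-fold lower than in the rhoGFP-negative (-1.14 ± 0.21 SE, limma adjusted p = 0.00298) and 3.07-fold lower than in the nestinGFP-positive cells (-1.62 ± 0.21, limma adjusted p = 0.00022). The first call was lost, at under 2-fold, without rhoGFP-positive replicate 1 (-0.99) or rhoGFP-negative replicate 3 (-0.96) and with the mean of both probe sets (-0.69). Fads2 stood at 8.52, 8.22 and 8.56 in rhoGFP-positive, 9.07, 9.15 and 9.59 in rhoGFP-negative and 9.79, 9.92 and 9.48 in nestinGFP-positive arrays, again lowest in the rhoGFP-positive cells without overlap. It was 2.45-fold lower than in the nestinGFP-positive cells (-1.29 ± 0.17, limma adjusted p = 0.000267), and its difference of -0.84 between the P4 fractions (limma adjusted p = 0.00576) was under 2-fold. Its 2 other probe sets gave -1.32 and -0.82 against P0.

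Scd2, the stearoyl-CoA desaturase of developing brain, stood at 10.88, 10.29 and 10.29 in rhoGFP-positive, 12.48, 12.36 and 12.39 in rhoGFP-negative and 12.76, 12.54 and 12.52 in nestinGFP-positive arrays. The rhoGFP-positive arrays lay at least 1 unit below all 6 others. It was 3.79-fold lower than in the rhoGFP-negative (-1.92 ± 0.16 SE, limma adjusted p = 2.67e-05) and 4.34-fold lower than in the nestinGFP-positive cells (-2.12 ± 0.16, limma adjusted p = 9.47e-06). A second probe set gave -2.03 and -2.55, and a dim one -0.94 and -0.96. Scd1, the dim paralogue, stood at 5.12, 5.80 and 5.64 in rhoGFP-positive, 5.37, 5.73 and 5.89 in rhoGFP-negative and 6.42, 6.86 and 6.38 in nestinGFP-positive arrays. Its P4 arrays overlapped each other and lay below P0. The rhoGFP-positive difference from P0 was -1.04 (limma adjusted p = 0.00362), close to the 2-fold minimum, and under it after aligning array medians (-0.99) or leaving out rhoGFP-positive replicate 1 (-0.83) or nestinGFP-positive replicate 2 (-0.88). The rhoGFP-negative difference of -0.89 (limma adjusted p = 0.0653) was -1.002 and called without rhoGFP-negative replicate 3 (limma adjusted p = 0.0423).

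The enzymes that begin fatty acid synthesis and the remaining elongase were not called. Acaca, the acetyl-CoA carboxylase, passed the adjusted p alone as higher in the rhoGFP-positive cells against both others (0.63 and 0.44, limma adjusted p = 0.00364 and 0.0182). Fasn, the synthase that uses its product, passed it as lower (-0.57 and -0.80, limma adjusted p = 0.0297 and 0.00348). Their arrays did not overlap in these comparisons. Elovl1 passed it as lower against P0 (-0.57, limma adjusted p = 0.035) with overlapping arrays. Beside these fatty acid genes, the Müller glia, progenitor and cell cycle marker sums given above were also lower on the rhoGFP-positive arrays, and their part was not tested.

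**Figure D4:**
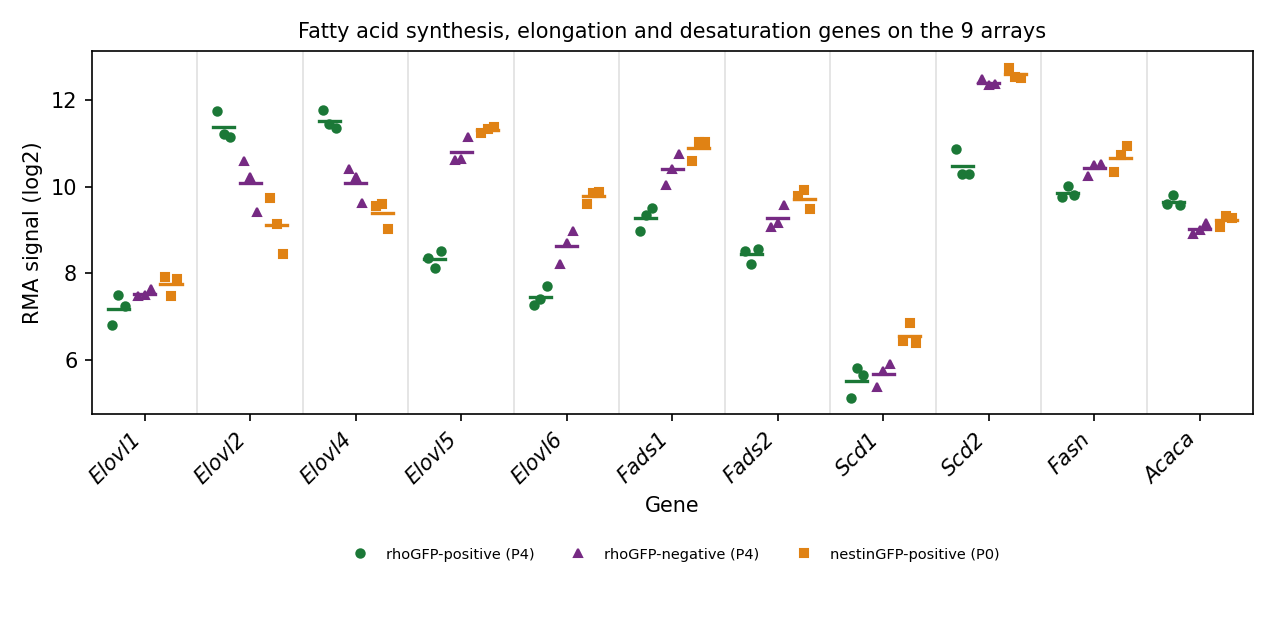
Log2 RMA signal (y axis) of the 11 genes of fatty acid synthesis, elongation and desaturation (x axis), with 1 point per array and a bar at each group mean, 3 arrays per group. Elovl2 and Elovl4 are highest in the rhoGFP-positive cells, at 11.15 to 11.78, and Elovl5 is lowest there, at 8.11 to 8.51 against 10.61 to 11.38 on the other arrays.

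A list of 50 further genes of these pathways, 44 of them measured, had pooled medians near that of all genes. In the rhoGFP-positive cells 4 of 44 were higher and 2 lower than in the rhoGFP-negative cells, against 3.61% and 7.32% of all genes. Their median difference was 0.06. Against the nestinGFP-positive cells 4 of 44 were higher and 4 lower, where 5.06% and 10.5% of all genes were, and the median was 0.09. Between the other 2 groups 1 was higher (Apoe, 1.09 ± 0.19 SE, limma adjusted p = 0.0270, named after its value was seen) and 0 lower, with 2 passing the adjusted p alone. Of all genes 0.385% were higher and 0.605% lower there. The sublists differed: the 7 further genes listed under sterol synthesis had a median of 0.51 between the P4 fractions, with 6 of 7 above 0. Against P0 their medians were 0.02 in the rhoGFP-positive and -0.13 in the rhoGFP-negative cells, beside -0.54 and -0.59 for the 14 enzymes described above. In the rhoGFP-positive cells 3 of the 7 passed the adjusted p alone as higher in each comparison, against 10.1% and 16% of all genes. Against P0 1 of 7 was called lower, where 10.5% of all genes were. The 7 did not move alike, so their median stands for no shared direction of sterol synthesis. Acat1, Ggps1 and Aacs were higher on every rhoGFP-positive array than on all others (Acat1 at 10.75 to 11.08 against 9.84 to 10.37). Lbr was lower there, at 9.54 to 9.80 against 9.93 to 11.27. Msmo1 lay below every P0 array (9.04 to 9.34 against 9.46 to 9.70), and Ebp and Tm7sf2 overlapped the P0 arrays. The sterol transporter Abcg4, a relative of Abcg1, was higher in the rhoGFP-positive cells by 2.20 ± 0.17 and 2.59 ± 0.17 SE against the rhoGFP-negative and nestinGFP-positive groups (limma adjusted p = 1.55e-05 and 3.66e-06). Rxra, the partner of the sterol-sensing LXR receptors, was higher by 1.06 ± 0.091 in each. The lipoprotein receptor Lrp1 was lower (-1.72 ± 0.23 and -2.14 ± 0.23). The acyl-CoA synthetases went opposite ways: Acsl6 was higher (1.05 ± 0.13 and 1.43 ± 0.13) and Acsl3 lower (-1.16 ± 0.15 and -1.23 ± 0.15).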

How the data were processed

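Expression was measured on Affymetrix arrays from 9 pooled samples of sorted retinal cells. Per the labels' protocols, Qiagen RNeasy columns gave the RNA and Ambion MessageAmp the labelled product. The authors deposited log2 signals, and the submitters' processing notes name RMA without a version. RMA corrects background, quantile-normalizes arrays and compresses low signals, so folds of dim genes are understated. Of 45101 probe sets 34945 were annotated to 1 gene symbol, 34741 of these symbols were looked up by Entrez ID, and 932 probe sets had several. A gene was represented by its probe set with the highest mean over the 9 arrays, and other probe sets were a check (79 probe sets for 35 members, 10 with a single one).

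Testing used the lmFit and eBayes functions of limma 3.58.1 (R 4.3.3), two-sided, in 1 fit of all 9 arrays with 3 group means, with Benjamini-Hochberg adjustment over 18193 genes and 95% intervals from the fit. The steps were tested on simulated data. An exact permutation test of 3 against 3 arrays cannot go below 0.1 and was not used. The number of arrays limits the precision, and p-values measure the spread between pools. The labels do not say that a replicate number marks a shared pool. Deviations from group means of same-numbered arrays correlated over genes at 0.62, 0.45 and 0.45 between the rhoGFP fractions. They correlated at 0.54, 0.15 and 0.23 for rhoGFP-negative against nestinGFP-positive arrays and at 0.52, -0.01 and 0.25 in the remaining comparison. The numbers were taken to pair arrays between the rhoGFP fractions, a reading of the data that the labels do not state. Pairing with the nestinGFP-positive arrays, of another line and age, was unclear. There rhoGFP-negative replicate 2 correlated at 0.22 with nestinGFP-positive replicate 3. The main fit left pairing out, so its SE, intervals and p-values include any shared difference between replicate numbers. The replicate block was an alternative, and it matched the nestinGFP-positive arrays by number too. Its p-values against that group therefore rest on the unclear pairing. Values are given by member for those called in at least 1 comparison, and other pathway genes are named when called alike in both comparisons of the rhoGFP-positive cells. The members and lists were chosen with earlier results of these data known. Promoters are from RefSeq, GRCm38.p6. Figures were drawn with matplotlib 3.10.9. Alternatives were other normalizations, probe set rules, a filter on dim genes, the 6 arrays compared, the replicate block, eBayes settings, thresholds, and leaving out each array.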

Additional observations from a re-analysis of the deposited data

How the results depend on the processing

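Of 32 member calls over the 3 comparisons, 16 were kept under all 18 alternatives other than thresholds, 16 were lost under at least 1, and 0 reversed. The mean of all probe sets lost most calls (11), and it left 3 members lower between the rhoGFP fractions instead of 6. Cyclic loess, leaving out _x_at and _s_at probe sets or dim genes, the replicate block and the trend and robust eBayes settings lost 0. The block changed no member call at 2-fold. Calls for rhoGFP-negative against nestinGFP-positive cells were the least stable. There 1 member higher became 0 with the mean of probe sets, with only the 6 arrays compared and at an adjusted p of 0.01, and 3 members lower became 0 with 6 arrays, 0 at 0.01 and 6 by the adjusted p alone. Leaving out 1 array gave 0 to 1 higher and 0 to 4 lower. Over all genes of that comparison, 70 higher and 110 lower became 13 and 15 with 6 arrays, 132 and 321 with the replicate block, 173 and 197 by the adjusted p alone, 10 and 13 at 0.01, and 8 to 145 and 11 to 414 without 1 array. Arrays whose removal moved these counts by over 1.5 times were rhoGFP-positive replicates 2 and 3 and all rhoGFP-negative and nestinGFP-positive replicates. In the other 2 comparisons the adjusted p alone gave 1830 and 2906 genes higher and 2587 and 3602 lower. The median of sterol synthesis against the nestinGFP-positive cells moved from -0.54 to -0.31 with probe sets averaged and to -0.40 once _x_at and _s_at probe sets were dropped in the rhoGFP-positive cells, and from -0.59 to -0.39 with the mean in the rhoGFP-negative cells. Without 1 array these medians ran from -0.61 to -0.42 and from -0.71 to -0.51, and that of uptake and control in the rhoGFP-positive cells from -0.23 to -0.083. The efflux median of the rhoGFP-negative cells was 1.01 with the mean of probe sets. The cause was not tested. Without detection calls, dim values such as those of Scd1 are uncertain in size.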
